A study of Sus scrofa with 18 samples.

Results

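ETNPPL, AOAH, CHI3L1 and TMEM86A are 4 genes whose RNA was low or moderate in pig endometrium on gestational day (GD) 15 and GD26 and high on GD50, in Yorkshire and in Meishan gilts. They were chosen for their rise between GD26 and GD50, so that rise is described here with no test. The tests below concern the earlier step and the breeds. The choice used the GD26 arrays and favours genes low on that day, which limits every test of the step from GD15 to GD26. Every probe set annotated to 1 of these symbols was taken, which gave 5 of the 24123 probe sets on the Affymetrix porcine GeneChip, 2 of them for AOAH. The 4 genes are among 6765 that the platform names by a single symbol. Of the 5, 4 passed a filter on low values, which asked for 6 or more of the 18 arrays with an intensity over 100, and 9320 probe sets passed it in all. ETNPPL passed through its 6 GD50 arrays alone. AOAH also needed its GD50 arrays to pass, since before GD50 only its 3 Yorkshire GD15 arrays were over 100. The 6 groups, of 3 arrays each, were the endometrium of Yorkshire and of Meishan gilts at each of the 3 stages. All gilts were pregnant, had been mated to boars of their own breed and carried no further treatment or engineered allele. Each array held a pool of RNA from 1 conceptus attachment site of each of 2 gilts. All pools of a group stem from 1 pair of gilts, and the p-values therefore speak of differences among attachment sites, with no measure of the variation among gilts.

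The pig placenta is epitheliochorial: the trophoblast attaches to the uterine epithelium without invading it, and the endometrium nourishes the conceptus through glandular secretions and transport across both epithelia. The 4 genes belong to different branches of metabolism and defence. ETNPPL encodes ethanolamine-phosphate phospho-lyase, which breaks down phosphoethanolamine, a building block of the membrane lipid phosphatidylethanolamine. AOAH encodes acyloxyacyl hydrolase, an enzyme known from human and mouse phagocytes that removes fatty acyl chains from the lipid A part of bacterial lipopolysaccharide and so inactivates it. CHI3L1 encodes a secreted chitinase-like glycoprotein, also called YKL-40, that binds chitin but has no chitinase activity and is made by macrophages, neutrophils and other cells in human tissue. TMEM86A encodes a membrane lysoplasmalogenase that cleaves lysoplasmalogens, and it is a target of liver X receptors in mouse and human macrophages.

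The deposited values are log2 intensities, given below as linear intensities for single arrays and on the log2 scale for differences. An intensity of 4.53 is the lowest in the file, and values under 100 are treated as low. Where all arrays of the dimmer group were under 100, a fold is given as a bound ("at least"), computed with that group set to 100. Hybridization controls, which are added to every array, averaged log2 11.7 to 13.7 on the 6 Yorkshire GD26 and GD50 arrays and 9.997 to 11.3 on the other 12, while the array medians were 7.78 to 8.13 and 8.31 to 8.40. The median probe set was accordingly 0.47 lower (log2) on GD26 than on GD15 in Yorkshire, and 0.42 and 0.46 lower in Yorkshire than in Meishan on GD26 and GD50. Some values of the members are therefore also given after centring each array on its median. For GD26 minus GD15 in Yorkshire the centred value was -2.90 for AOAH (limma adjusted p = 1.03e-05) and 1.60 for CHI3L1 (limma adjusted p = 0.00535). Epithelial markers such as KRT8 and EPCAM marked the tissue on GD15, when 11 of 11 of these markers on the array were above 100 on every array of both breeds. Of 9 trophoblast markers on the array, 8 were under 100 on every GD15 array, and on the GD26 and GD50 arrays of each group 6 or 7 were above 100 on all arrays.

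ETNPPL was at the lowest values of the array until GD26 and was bright on GD50. The 3 Yorkshire GD15 arrays read 4.54, 4.54 and 4.58, and the Yorkshire GD26 arrays read 4.55, 4.54 and 4.54. On the Yorkshire GD50 arrays the intensity was 8909, 7398 and 5438. In Meishan, the GD15 arrays read 5.07, 4.54 and 4.54, the GD26 arrays read 4.54, 4.63 and 4.54, and the GD50 arrays read 8974, 8063 and 8495. All 6 GD50 arrays were thus far above all 12 earlier ones, with no overlap. On GD50 the level was at least 71.0-fold that of GD26 in Yorkshire and at least 85.0-fold in Meishan. Between GD26 and GD15 both groups of each breed were under 100, so no fold is given. The GD50 levels of the breeds overlapped, at log2 12.79 ± 0.36 in Yorkshire and 13.05 ± 0.08 in Meishan (SD, n = 3 arrays each).

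AOAH was lowest on GD26 and brightest on GD50, in both breeds. Its brighter probe set read 124, 136 and 190 on the Yorkshire GD15 arrays, 15.5, 13.0 and 16.9 on the GD26 arrays, and 2802, 1802 and 2010 on the GD50 arrays. In Meishan it read 61.6, 36.2 and 78.5 on GD15, 10.7, 13.7 and 13.2 on GD26, and 1280, 1197 and 1319 on GD50. The 3 days did not overlap in either breed, with GD26 lowest and GD50 highest. GD50 was at least 21.6-fold above GD26 in Yorkshire and at least 12.6-fold in Meishan. Against GD15, GD50 was 14.7-fold higher in Yorkshire and at least 12.6-fold higher in Meishan.

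The GD26 level of AOAH was below that of GD15 in both breeds, at signals that were mostly low. In Yorkshire, GD26 minus GD15 was -3.29 ± 0.23 on the log2 scale (SE, n = 3 arrays per day; limma with Benjamini-Hochberg adjustment, adjusted p = 5.46e-05), which as a bound is at least 1.47-fold lower. In Meishan the difference was -2.17 ± 0.27 (SE, n = 3 arrays per day, limma adjusted p = 0.00111), with both days under 100. With values under 100 set to 100, neither was called (-0.56, limma adjusted p = 0.065, in Yorkshire, and 0 in Meishan, where all values are then at the floor). The rule used the GD26 arrays, and a choice for a rise from GD26 favours genes that were low on that day. The second AOAH probe set did not pass the filter. It read 56.1, 64.3 and 95.4 on the Yorkshire GD50 arrays and 4.99, 4.53 and 4.53 on the Meishan GD50 arrays, and it was at 4.53 on all 12 earlier arrays. Both probe sets of AOAH were thus higher in Yorkshire than in Meishan on GD50, without overlap, the second one below 100 in both breeds.

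Neutrophil markers were read beside AOAH, and they moved in different directions. The summed intensity of the 6 of 12 neutrophil markers on the array ran from 7903 to 13151 on the Yorkshire GD15 arrays and from 850 to 1936 on the Meishan GD15 arrays. It ran from 3044 to 3619 on GD26 and from 1746 to 3362 on GD50 in Yorkshire, and from 1163 to 1625 on GD26 and from 1327 to 1368 on GD50 in Meishan. S100A8 and LTF were under 100 on all arrays. S100A9, a calcium-binding protein of neutrophils and inflamed epithelium, fell between GD15 and GD26 as AOAH did. It fell by 6.63 on the log2 scale in Yorkshire (limma adjusted p = 2.10e-05), and fell by 2.70 in Meishan (limma adjusted p = 0.00172). S100A9 rose again on GD50, by 3.47 ± 0.36 on the log2 scale in Yorkshire (SE, limma adjusted p = 0.00229) and by 1.99 ± 0.38 in Meishan (SE, limma adjusted p = 0.0176). PGLYRP1, a peptidoglycan-binding protein of neutrophil granules, went the other way in Yorkshire, where it read 2341 to 2529 on GD26 and 4.53 to 4.71 on GD15, a rise (limma adjusted p = 4.11e-06). Between GD26 and GD50 it fell by 3.79 ± 0.30 in Yorkshire (SE, limma adjusted p = 9.89e-04). FCGR3A changed between GD15 and GD26 by -1.25 in Yorkshire (limma adjusted p = 0.0158) and by 0.60 in Meishan (limma adjusted p = 0.153). Its change between GD26 and GD50 was not called in either breed. Of the 3 neutrophil markers past the filter, 1 rose and 2 fell between GD15 and GD26 in Yorkshire, and 0 rose and 1 fell in Meishan. The part of these cells in the AOAH values was not tested, and fewer cells of a type and less RNA per cell cannot be told apart in whole tissue.

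CHI3L1 was lower in Yorkshire than in Meishan early, and the breeds overlapped on GD50. On the Yorkshire arrays it read 56.5, 61.6 and 43.0 on GD15, 82.9, 211 and 105 on GD26, and 12129, 8266 and 7194 on GD50. On the Meishan arrays it read 360, 206 and 120 on GD15, 211, 329 and 336 on GD26, and 8221, 6713 and 7970 on GD50. The lowest GD50 array was at 6713 and the brightest earlier one at 360, although GD15 and GD26 overlapped in Meishan. GD50 minus GD26 was 6.20 ± 0.38 (log2, SE) in Yorkshire, a fold of 73.3, and 4.74 ± 0.40 in Meishan, a fold of 26.6. The step from GD15 to GD26 was called in Yorkshire, at 1.20 ± 0.38 (SE, n = 3 arrays per day, limma adjusted p = 0.0296), or at least 1.22-fold higher on GD26. In Meishan it was 0.46 ± 0.40 (SE, n = 3 arrays per day, limma adjusted p = 0.377, 95% interval -0.51 to 1.43). The Yorkshire step was not called with values under 100 set to 100 (0.38), without a filter, or with only the 2 groups compared in the fit.

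Macrophage markers were read beside CHI3L1. Of 12 such markers 8 were on the array, and their summed intensity in Yorkshire ran from 3300 to 4900 on GD15, from 3767 to 4547 on GD26 and from 4745 to 5962 on GD50. In Meishan it ran from 1280 to 4297, from 4854 to 5373 and from 6269 to 6859 on the same days. The ranges of GD50 lay above those of GD26 in both breeds, and MARCO and ITGAM were under 100 on all arrays. Of the 4 macrophage markers past the filter, limma called 1 in Yorkshire between GD26 and GD50. This was C1QC, a subunit of the complement starter C1q, which rose by 0.78 ± 0.18 (log2, SE, limma adjusted p = 0.0361). At an unadjusted p under 0.05, 3 rose and 1 fell in Yorkshire, the fall being that of AIF1, at -0.61 (limma adjusted p = 0.140). In Meishan limma called 0 of the 4, also at an unadjusted p under 0.05. The part of macrophages in the CHI3L1 values was not tested.

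TMEM86A was already above 100 on every GD15 array, and its late step was smaller than that of the other 3. The Yorkshire arrays read 420, 411 and 427 on GD15, 281, 258 and 308 on GD26, and 2282, 1501 and 1398 on GD50. The Meishan arrays read 297, 298 and 241 on GD15, 333, 415 and 336 on GD26, and 1787, 2310 and 2014 on GD50. The lowest GD50 array of either breed was at 1398 and the brightest earlier array at 427. GD50 was 5.99-fold above GD26 in Yorkshire (log2 difference 2.58 ± 0.18, SE) and 5.63-fold above it in Meishan (log2 difference 2.49 ± 0.14, SE). The earlier step ran in opposite directions: GD26 minus GD15 was -0.58 ± 0.18 in Yorkshire (SE, n = 3 arrays per day, limma adjusted p = 0.0295) and 0.38 ± 0.14 in Meishan (SE, n = 3 arrays per day, limma adjusted p = 0.0646), with no overlap of the days in either breed. After centring each array on its median the Yorkshire value was -0.18 (limma adjusted p = 0.421) and the Meishan value 0.42 (limma adjusted p = 0.0421). The rule used the GD26 arrays here too, which favours a fall to that day.

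**Figure D1:**
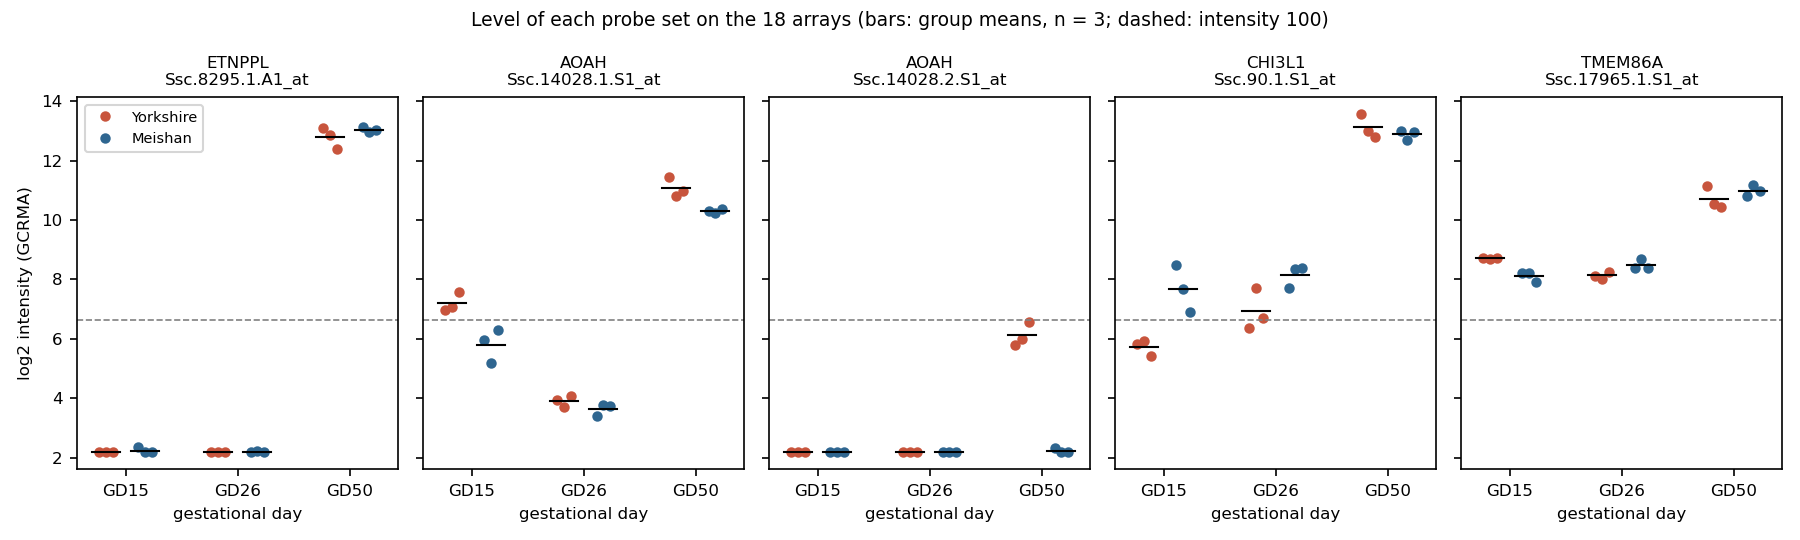
Log2 intensity of the 5 probe sets of the 4 genes on each array, by gestational day, with Yorkshire to the left of Meishan and bars at the means of 3 arrays. ETNPPL stays at the lowest values until GD26, AOAH dips on GD26, CHI3L1 starts lower in Yorkshire than in Meishan, and the second AOAH probe set leaves the lowest values on the 3 Yorkshire GD50 arrays alone, apart from 4.99 on 1 Meishan array.

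Set against all probe sets, the late rise was uncommon in size and the early step was not. A level at least 2-fold higher on GD50 than on GD26 was found for 4 of the 4 genes in each breed, which the choice of the genes fixes, and for 4.12% of the probe sets past the filter in Yorkshire and 3.74% in Meishan. Between GD15 and GD26, 3 of the 4 genes passed the test in Yorkshire, where 64.1% of all probe sets did, and 1 of the 4 passed in Meishan, where 50% did. These counts lie near the background of the array and say nothing particular about the 4 genes. In Yorkshire the 3 were AOAH and TMEM86A, which fell, and CHI3L1, which rose. Without any 1 of the Yorkshire GD15 arrays only AOAH was still called of these 3. The CHI3L1 call was also lost without Yorkshire GD26 array 3 (limma adjusted p = 0.0506), and the TMEM86A call without Yorkshire GD26 array 1 (limma adjusted p = 0.0633) or array 2 (limma adjusted p = 0.0864).

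The breed difference of the step from GD15 to GD26 was past the test for AOAH and TMEM86A, at a threshold that 36.6% of all probe sets passed. Yorkshire minus Meishan was -1.13 ± 0.36 for AOAH (log2, SE, limma adjusted p = 0.0282) and -0.95 ± 0.23 for TMEM86A (SE, limma adjusted p = 0.00783). For CHI3L1 it was 0.74 ± 0.56 (SE, limma adjusted p = 0.314). Of the 4 groups behind the AOAH value, 3 were under 100 on all arrays, and its call was lost under each of the 3 other scalings and the floor of 100 (-0.78 to -0.43, limma adjusted p of 0.0676 to 0.414). For TMEM86A the call was lost after median centring (-0.60, limma adjusted p = 0.0733) and loess (-0.58, limma adjusted p = 0.0741). For the later step, from GD26 to GD50, the Yorkshire minus Meishan difference was -0.25 ± 0.18 for ETNPPL, 0.51 ± 0.36 for AOAH, 1.46 ± 0.56 for CHI3L1 and 0.09 ± 0.23 for TMEM86A (log2, SE), given with no test because the step chose the genes. Of all probe sets, 4.74% passed the test of that difference.

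On GD15, whose arrays the rule did not use, 3 of the 4 genes differed between the breeds, against 10.5% of all probe sets. AOAH, 1 of the 3, passed the filter only with its GD50 arrays. The spread in the fit also came in part from the GD26 and GD50 arrays, which the rule used. The count is therefore a description and no result about the 4 genes as a set. AOAH was higher in Yorkshire, by 1.40 ± 0.26 on the log2 scale (SE, n = 3 arrays per breed, limma adjusted p = 0.00307), or at least 1.47-fold. CHI3L1 was lower in Yorkshire, with a difference of -1.97 ± 0.40 (SE, n = 3 arrays per breed, limma adjusted p = 0.00617), or at least 2.07-fold lower. TMEM86A was higher in Yorkshire by 0.60 ± 0.17 (SE, n = 3 arrays per breed, limma adjusted p = 0.0356). The 3 Yorkshire arrays of each of these genes lay apart from the 3 Meishan arrays. The TMEM86A call was lost without any 1 of the 6 GD15 arrays, with limma adjusted p of 0.0585 to 0.118. With the 2 GD15 groups alone in the fit, only TMEM86A was still called, and AOAH and CHI3L1 had limma adjusted p = 0.0936 and 0.0762. With values under 100 set to 100, CHI3L1 was not called (-1.05), while AOAH (0.56, limma adjusted p = 0.0344) and TMEM86A still were.

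The rule used the GD26 and GD50 arrays for the rise within each breed, and not the difference between breeds. On these days the breed comparison carries the offset of the Yorkshire arrays described above, and 53.5% of all probe sets were called on GD26 and 57.2% on GD50. On GD26, 1 of the 4 genes was called. CHI3L1 was lower in Yorkshire, by -1.22 ± 0.40 (log2, SE, n = 3 arrays per breed, limma adjusted p = 0.0205), with the brightest Yorkshire array at 211.3 and the dimmest Meishan array at 210.6. After median centring the difference was -0.87 (limma adjusted p = 0.0904). The call was also lost without Yorkshire GD26 array 1 or 3, or Meishan GD26 array 2 or 3 (limma adjusted p of 0.0651 to 0.0777). TMEM86A had a difference of -0.35 ± 0.17 on GD26 (SE, n = 3 arrays per breed, limma adjusted p = 0.0878), and of -0.0012 once the arrays were centred. AOAH was under 100 in both breeds on that day.

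On GD50, 1 of the 4 genes was called. AOAH was 1.71-fold higher in Yorkshire, a log2 difference of 0.78 ± 0.26 (SE, n = 3 arrays per breed, limma adjusted p = 0.0205), without overlap. Its difference was 1.19 after median centring. The call was lost without Meishan GD50 array 2 (limma adjusted p = 0.0569) or without Yorkshire GD50 array 1 (limma adjusted p = 0.0846), the brightest of its group for all 4 genes. The intervals of the other 3 genes spanned 0. ETNPPL differed by -0.26 (95% interval -0.53 to 0.01, limma adjusted p = 0.0895), CHI3L1 by 0.24 (95% interval -0.62 to 1.10, limma adjusted p = 0.623) and TMEM86A by -0.27 (95% interval -0.62 to 0.09, limma adjusted p = 0.185). Without Yorkshire GD50 array 1, ETNPPL was called at -0.42 (limma adjusted p = 0.0036) and TMEM86A at -0.48 (limma adjusted p = 0.00865). Median centring turned the sign for both, to 0.15 each. The interval and p-values of ETNPPL rest on a spread shared over the 6 groups. Its GD15 and GD26 groups lay at the lowest values, with SDs of at most 0.091, against 0.36 on Yorkshire GD50. The interval is thus too narrow for the GD50 arrays. ETNPPL passed the filter through its GD50 arrays alone, which the rule used. AOAH also needed these arrays, since before GD50 only its 3 Yorkshire GD15 arrays were over 100. The p-values of both genes on GD50 are therefore a description only.

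**Figure D2:**
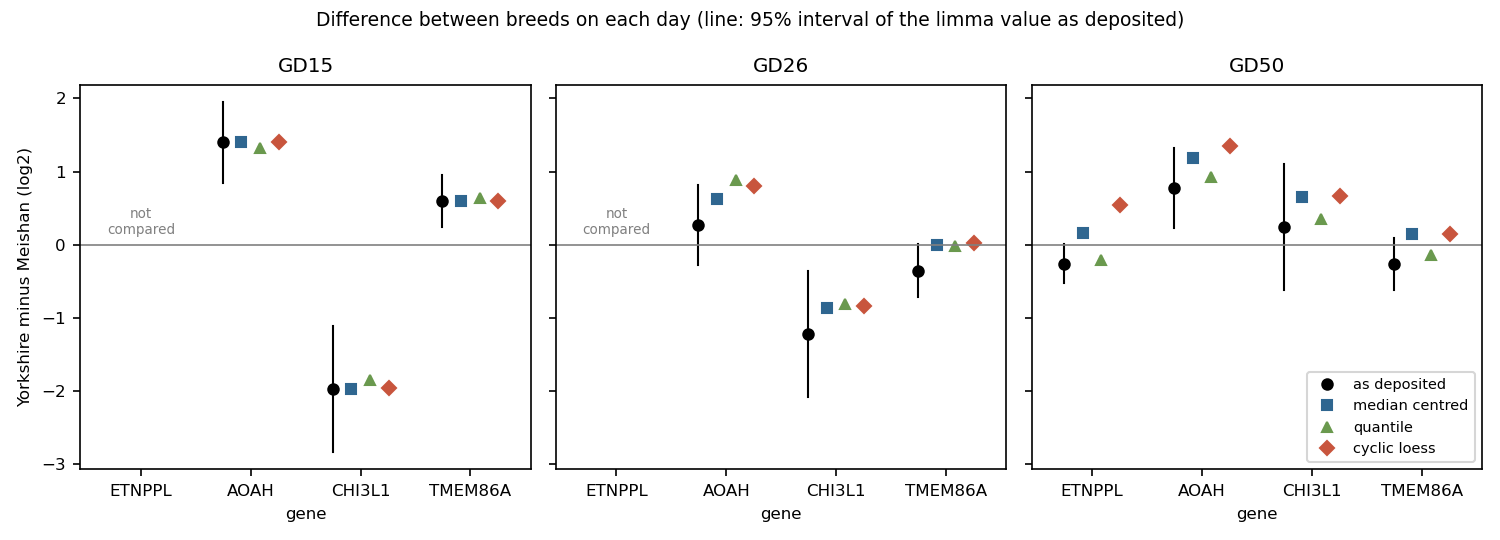
Yorkshire minus Meishan difference (log2) of each gene on each day, as deposited and after 3 other scalings, with the 95% interval of the value as deposited. The 3 scalings leave the GD15 differences near their places, while on GD26 and GD50 the centred and loess values lie higher, and those of ETNPPL and TMEM86A on GD50 change sign under both. ETNPPL was under 100 on GD15 and GD26 and was not compared there, and its GD50 interval is too narrow because its spread includes those days.

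The 4 genes followed each other over the 18 arrays. Pearson's r of the log2 values was 0.976 for ETNPPL and TMEM86A, 0.957 for ETNPPL and CHI3L1, 0.913 for CHI3L1 and TMEM86A, 0.909 for AOAH and TMEM86A, 0.904 for ETNPPL and AOAH, and 0.788 for AOAH and CHI3L1. These values describe the common split between the 6 GD50 arrays and the 12 others, by which the genes were chosen, and the arrays of a group share their gilts. The lower value of AOAH with CHI3L1 goes with their opposite order of the breeds on GD15 and their opposite step to GD26 in Yorkshire.

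The genes most like each of them, by the same r over the 18 arrays, were often the same few. ANKRD1, a nuclear ankyrin repeat protein known from heart muscle, was among the 5 most alike genes of all 4 (r = 0.995 with ETNPPL, 0.902 with AOAH, 0.953 with CHI3L1 and 0.968 with TMEM86A). It read 287 to 482 on the Yorkshire GD50 arrays, 219 to 307 on the Meishan GD50 arrays, and at most 6.96 on the 12 earlier arrays. HP, which encodes the haemoglobin-binding plasma protein haptoglobin, was alike to ETNPPL (r = 0.990), CHI3L1 (r = 0.956) and TMEM86A (r = 0.956). It read 13791 to 20310 on the Yorkshire GD50 arrays and 6852 to 9616 on the Meishan ones, against at most 34.5 on the earlier arrays. Both were thus under 100 on all 12 earlier arrays and above 100 on all 6 GD50 arrays.

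PGA5, a pepsinogen, was alike to the same 3 genes as HP (r = 0.951 with ETNPPL, 0.940 with CHI3L1 and 0.950 with TMEM86A), with 163 to 300 on the Yorkshire GD50 arrays and 666 to 883 on the Meishan ones. GK, glycerol kinase, joined ETNPPL (r = 0.946) and CHI3L1 (r = 0.947). It was measured on all days, and read 424 to 722 on the Yorkshire GD50 arrays and 473 to 679 on the Meishan ones, against 80.8 to 186 on the earlier arrays of both breeds. TPD52 completed the 5 of ETNPPL (r = 0.934) and DYNLRB1, a dynein light chain, those of CHI3L1 (r = 0.951).

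The 5 genes most like AOAH were in part others. RAB3D, a small GTPase of secretory vesicles (r = 0.926), FAH, the last enzyme of tyrosine breakdown (r = 0.917), CCDC93 (r = 0.912) and ADORA1, an adenosine receptor (r = 0.908), came before ANKRD1. In Yorkshire RAB3D read 568 to 585 on GD15, 392 to 408 on GD26 and 860 to 1109 on GD50. In Meishan it read 461 to 575, 494 to 557 and 905 to 1075 on the same days, with GD15 and GD26 overlapping. RAB3D (r = 0.952) and ADORA1 (r = 0.933) were also among the 5 of TMEM86A. The choice depends on which arrays are used: of each set of 5, 2 or 3 were still chosen on the 9 Yorkshire arrays alone, 1 or 2 on the 9 Meishan arrays alone, and 4 after median centring.

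**Figure D3:**
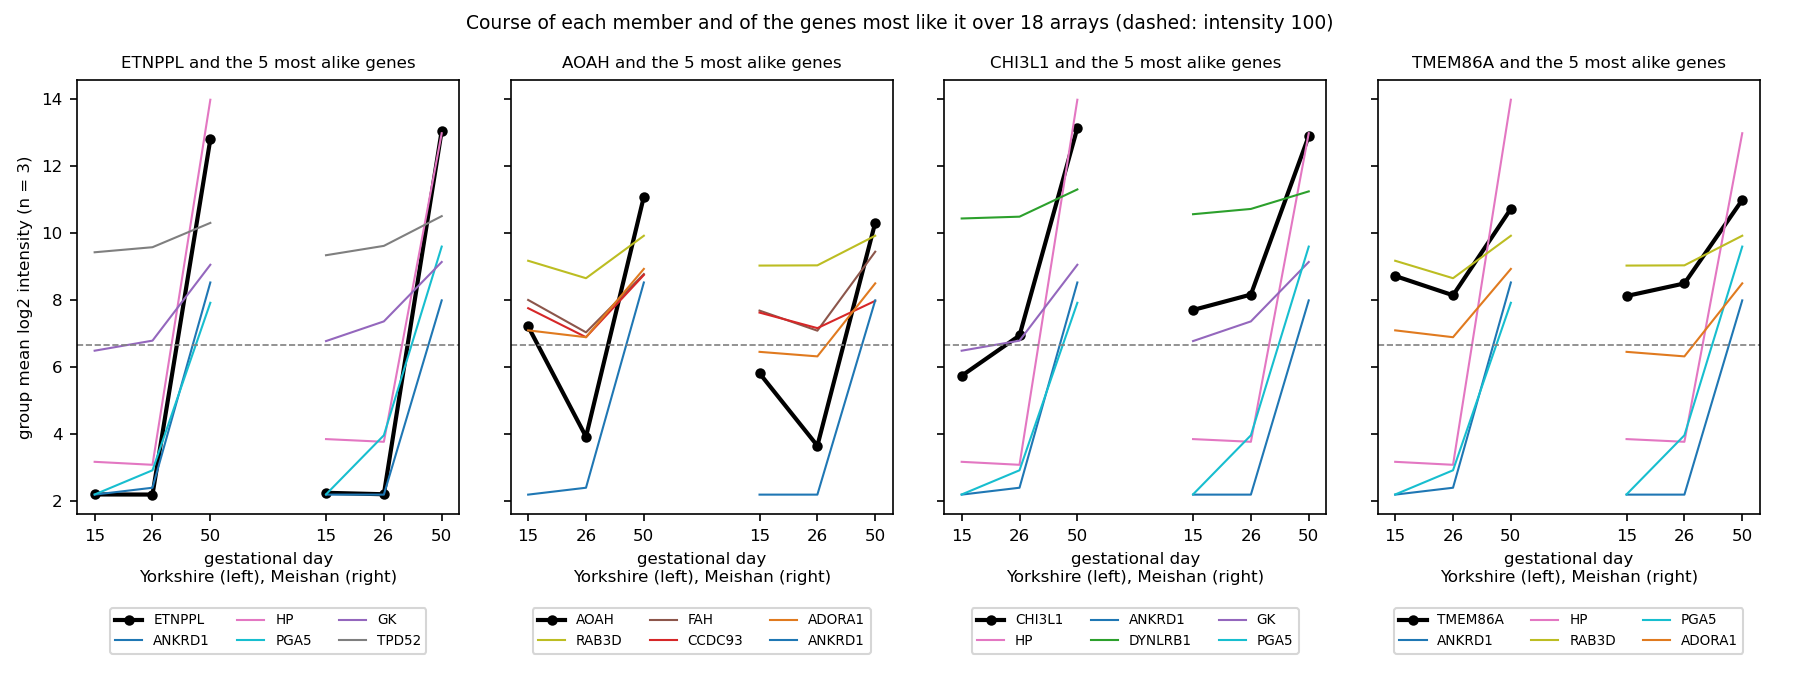
Group mean log2 intensity (n = 3 arrays) on GD15, GD26 and GD50, in Yorkshire on the left and Meishan on the right of each panel, for each of the 4 genes in black and the 5 genes most like it in colour; days are evenly spaced. ANKRD1, HP and PGA5 are under 100 on GD15 and GD26, and RAB3D, alike to AOAH and TMEM86A, is lower on GD26 than on GD15 in Yorkshire but not in Meishan.

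Neighbouring genes mostly did not share the late rise. In the RefSeq order of the pig assembly Sscrofa11.1, of the 2 nearest genes on each side of the 4, 6 had a probe set past the filter. ADORA1, the second neighbour of CHI3L1, was the only 1 of these 6 that passed the test between GD26 and GD50 in either breed, with a rise of 2.04 (log2, limma adjusted p = 0.00485) in Yorkshire and of 2.18 (limma adjusted p = 0.00197) in Meishan. OSTC and RPL34 beside ETNPPL, ELMO1 beside AOAH, PRRC2C near CHI3L1 and SPTY2D1 beside TMEM86A had changes of -0.85 to 0.84, with limma adjusted p of 0.0779 to 0.844.

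The other genes of the pathways of the 4 were counted between GD26 and GD50. At this transition 5.92% of all probe sets were called higher and 7.85% lower in Yorkshire, and 7.83% higher and 9.7% lower in Meishan. Of 23 other genes of ethanolamine phospholipid metabolism, 9 were measured past the filter, of which 1 rose and 1 fell in each breed. Their median change was 0.20 in Yorkshire and -0.10 in Meishan (log2), beside -0.07 and -0.02 for all probe sets. CHPT1, the last enzyme of phosphatidylcholine synthesis, rose in Yorkshire by 1.25 ± 0.08 (SE, limma adjusted p = 4.48e-04) and fell in Meishan by 0.91 ± 0.18 (SE, limma adjusted p = 0.0192). It read 2130 to 2585 on GD50 and 984 to 1042 on GD26 in Yorkshire, and 589 to 624 on GD50 and 1016 to 1222 on GD26 in Meishan. CHKB, a choline and ethanolamine kinase, rose in Meishan by 0.65 ± 0.13 (SE, limma adjusted p = 0.0194), and its value in Yorkshire was 0.64 (limma adjusted p = 0.112). LPCAT3, which reloads lysophospholipids with unsaturated fatty acids, fell in Yorkshire by 1.93 ± 0.33 (SE, limma adjusted p = 0.0134).

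Of 21 other genes that bind, sense or clear lipopolysaccharide, 7 were measured, of which 2 rose and 1 fell in Yorkshire, and 2 rose and 2 fell in Meishan. The median change was 0.39 in Yorkshire and -0.06 in Meishan. TLR4, the lipopolysaccharide receptor, rose in both breeds, by 1.78 ± 0.09 in Yorkshire (SE, limma adjusted p = 3.04e-04) and by 1.27 ± 0.17 in Meishan (SE, limma adjusted p = 0.00572). It shared the dip of AOAH, with 542 to 618 on GD15, 120 to 135 on GD26 and 384 to 475 on GD50 in Yorkshire, and 406 to 465, 223 to 330 and 643 to 805 on the same days in Meishan. LY96, the partner of TLR4 that holds the lipid A, rose in Yorkshire by 1.49 ± 0.34 (SE, limma adjusted p = 0.0359) and had a value of 0.45 in Meishan (limma adjusted p = 0.217). BPI, a bactericidal protein that binds lipopolysaccharide, rose in Meishan by 5.42 ± 1.07 (SE, limma adjusted p = 0.0188), to 12332 to 14448 on GD50 against 50.5 to 1174 on GD26. In Yorkshire BPI read 5222 to 8750 on GD50 and 4745 to 8806 on GD26 already, a difference of 0.09 (limma adjusted p = 0.855). SCARB1, a scavenger receptor for lipoproteins and lipopolysaccharide, fell in both, by 1.14 ± 0.23 in Yorkshire (SE, limma adjusted p = 0.0236) and by 0.96 ± 0.19 in Meishan (SE, limma adjusted p = 0.0177).

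Of 13 other chitinase-like proteins and CHI3L1 partners, 3 were measured and limma called 0 in either breed, against 1 in Yorkshire and 0 in Meishan at an unadjusted p under 0.05, with a median change of 0.26 in Yorkshire and 0.15 in Meishan. Of 16 other genes of plasmalogen and ether lipid metabolism, 7 were measured, of which limma called 0 in Yorkshire, against 1 at an unadjusted p under 0.05, and 1 fell in Meishan. That 1 was PLA2G7, the secreted platelet-activating factor acetylhydrolase, with a fall of 1.40 ± 0.08 (SE, limma adjusted p = 4.54e-04), to 595 to 658 on GD50 against 1443 to 1747 on GD26. Its change in Yorkshire was 0.08 (limma adjusted p = 0.822).

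The liver X receptor and sterol-regulated genes moved on the earlier step. Of 16 such genes besides TMEM86A, 10 were measured. Between GD15 and GD26, 8 rose and 1 fell in Yorkshire and 7 rose and 1 fell in Meishan, where 20.6% and 23.3% of all probe sets rose, and the median change was 1.57 and 1.52. At the later transition, 1 rose and 3 fell in Yorkshire and 1 rose in Meishan, with medians of -0.54 and 0.02. MYLIP, a ubiquitin ligase of the LDL receptor, was the member that rose late in both breeds, by 1.08 ± 0.25 in Yorkshire (SE, limma adjusted p = 0.0362) and by 1.99 ± 0.21 in Meishan (SE, limma adjusted p = 0.00252). APOE, the lipoprotein of cholesterol transport, fell by 2.59 ± 0.26 late in Yorkshire (SE, limma adjusted p = 0.00206), and PLTP, a phospholipid transfer protein, fell by 0.74 ± 0.19 (SE, limma adjusted p = 0.0491). In Meishan the values were -1.50 for APOE (limma adjusted p = 0.0655) and -0.48 for PLTP (limma adjusted p = 0.307).

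**Figure D4:**
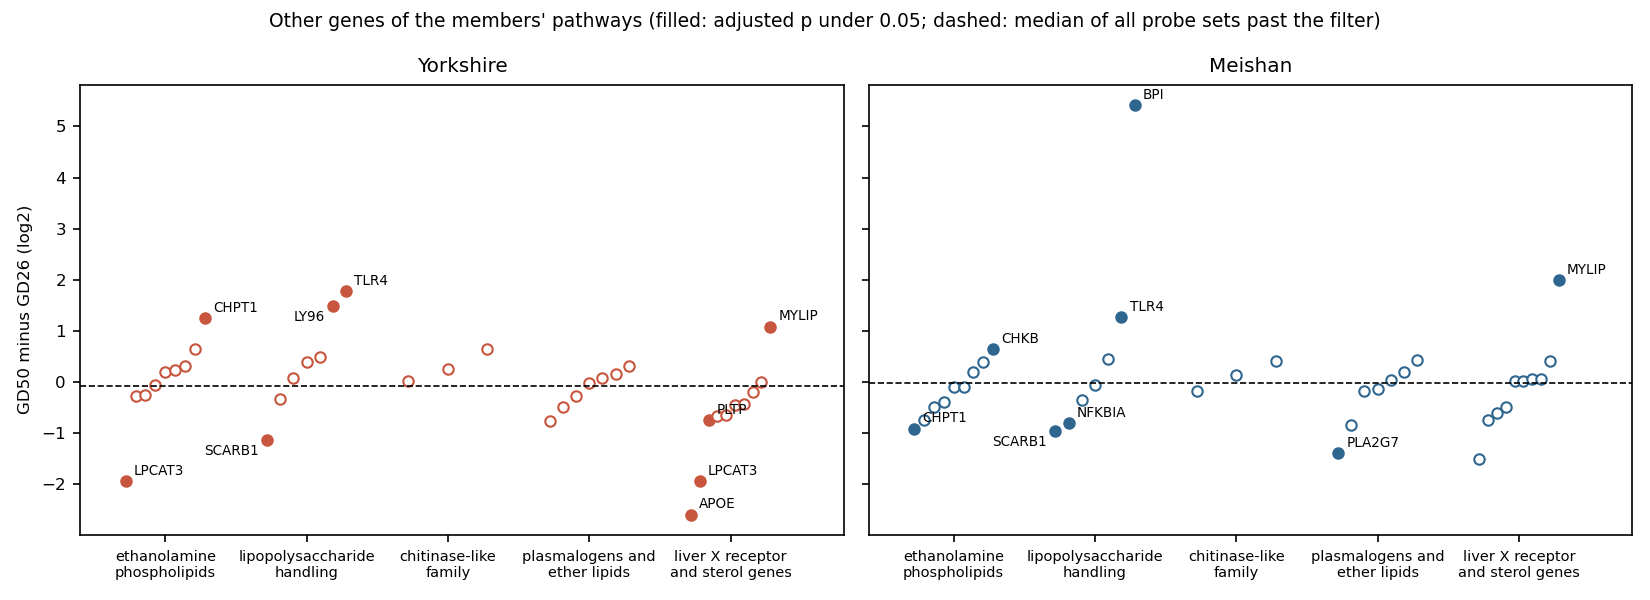
GD50 minus GD26 difference (log2) of the other genes of the members' pathways past the filter, in Yorkshire on the left and Meishan on the right, with filled points and names where the limma adjusted p was under 0.05 and a dashed line at the median of all probe sets. Most points lie near the line, and TLR4 and MYLIP are named above it in both breeds; LPCAT3 belongs to 2 of the lists.

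Markers of other cell types changed between GD26 and GD50 as follows. The summed intensity of the 9 trophoblast markers was 46737 to 66168 on GD50 and 74375 to 89758 on GD26 in Yorkshire, and 71143 to 88657 on GD50 and 40756 to 75115 on GD26 in Meishan. On GD15 it was 309 to 370 in Yorkshire and 355 to 444 in Meishan. Between GD26 and GD50, PPAG3, a placental aspartic peptidase, rose in Meishan by 0.75 (log2, limma adjusted p = 0.0248), and in Yorkshire GATA3 fell by 1.44 (limma adjusted p = 0.0316) and DPPA5 fell by 1.27 (limma adjusted p = 4.57e-04). Of the 11 liver and plasma protein genes on the array, 3 were past the filter. HP and TF, which encodes transferrin, rose in both breeds, APOA1 fell in Meishan, and ALB, AFP, APOA2, TTR, FGB, FGG and AHSG were under 100 on all GD50 arrays. The sum of the 11 was 15868 to 22399 on GD50 and 2288 to 2866 on GD26 in Yorkshire. Most of the GD50 sum was HP, which read 13791 to 20310 there and 8.36 to 8.50 on GD26. In Meishan the sum was 9514 to 12526 on GD50, with HP at 6852 to 9616. On the Meishan GD26 arrays it was 15354, 3527 and 4501, with HP at most 34.5, and array 1 stood apart. Without that array, GD50 minus GD26 in Meishan was 10.86 for ETNPPL, 6.55 for AOAH, 4.52 for CHI3L1 and 2.44 for TMEM86A (log2). Of the 6 smooth muscle markers past the filter, 2 fell in Yorkshire and 4 in Meishan, and the 7 endothelial markers counted 1 rise and 2 falls in Yorkshire and 5 falls in Meishan. The summed epithelial markers were 113126 to 117263 on GD50 and 95881 to 104051 on GD26 in Yorkshire, and 117638 to 122199 on GD50 and 99921 to 113476 on GD26 in Meishan. Of these 11 markers, 1 rose and 1 fell in Yorkshire, and 0 rose and 1 fell in Meishan, with median changes of -0.01 and 0.05. SPP1 and ACP5 were the brightest, at 50768 to 52545 and 37300 to 38407 on Yorkshire GD50, and neither change was called in either breed. The part of any of these cell types in the late rise of the 4 genes was not tested.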

How the data were processed

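The 18 samples, 3 arrays for each of the 6 groups, were read from 1 table of log2 values. The authors made these deposited log2 intensities by background correction, normalization between arrays and summarization (R, packages affy and GCRMA). The submitters' processing notes also name RMA, and versions are not given in the sources used here. Such values are compressed near background, so changes of low signals are uncertain. The number of arrays limits the precision. The number of value columns left unused is 0.

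Symbols came from the platform annotation: 1 symbol is given for 10099 probe sets, several for 198 and none for 13826, and 0 symbols changed when updated by gene identifier. Changes between days came from a linear model of all 24123 probe sets within each breed (lmFit, eBayes; limma 3.58.1, R 4.3.3), and differences between breeds in 1 fit over the 6 groups. The Benjamini-Hochberg adjustment covered the 9320 probe sets past the filter, without the 124 control probe sets, and a call is an adjusted p under 0.05, two-sided. Likeness is Pearson's r with the brightest probe set of each of 4340 genes past the filter, and the 5 highest are named. Of each pathway list, at most 4 genes past the test between GD26 and GD50 are named, by size of change, and NFKBIA, which fell in Meishan, is named in the plot only. The members and lists were chosen with earlier results of these data known. Alternatives were Bonferroni adjustment, no filter, a limit of 200, the filter before the fit, 2 groups per fit, a mean-variance trend, a floor of 100, 3 scalings, the replicate number as a block and leaving out each array. The alternatives for the breed difference of the first step were added after seeing the data. No sequences are shown. The plots were made in Python 3.11.15 (matplotlib 3.10.9).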

Additional observations from a re-analysis of the deposited data

Results flagged for a closer look

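For AOAH, the change between GD15 and GD26 differed between the breeds, by -1.13 ± 0.36 on the log2 scale (Yorkshire minus Meishan, SE, limma adjusted p = 0.0282), although in each breed the level was lower on all 3 GD26 arrays than on all 3 GD15 arrays. For TMEM86A, the same difference was -0.95 ± 0.23 (SE, limma adjusted p = 0.00783), with a fall in Yorkshire and a value of 0.38 in Meishan. Both lost the call after median centring and after loess, and AOAH, under 100 in 3 of the 4 groups, also after quantile normalization and with a floor of 100.

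Among the other pathway genes, the change between GD26 and GD50 differed between the breeds for 3 of those named, at a threshold that 4.74% of all probe sets passed. The Yorkshire minus Meishan difference was 2.16 ± 0.20 for CHPT1 (log2, SE, limma adjusted p = 8.14e-05), -5.33 ± 1.11 for BPI (SE, limma adjusted p = 0.0179) and 1.47 ± 0.21 for PLA2G7 (SE, limma adjusted p = 0.00238).

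The second AOAH probe set, which no comparison used because it did not pass the filter, averaged log2 6.13 ± 0.40 (SD, n = 3) on the Yorkshire GD50 arrays, above the lowest value of the file at which it lay on the arrays of the earlier days. This difference was not tested.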

How the results depend on the processing

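The GD50 level was at least 2-fold that of GD26 for all 4 genes in both breeds under each of the 5 other settings and each array left out. Bonferroni adjustment over all probe sets left 0 of the 4 genes called in each of the 5 tested comparisons. Between GD15 and GD26 in Yorkshire, 3 genes were called, 1 without a filter and 1 with a floor of 100, and 1 to 3 with each array left out. In Meishan, 1 was called, 2 after median centring, 3 after quantile normalization, 2 after loess, 0 with the floor, and 1 with each array left out. The added calls were of TMEM86A after centring, of TMEM86A and ETNPPL after quantile normalization and of ETNPPL after loess. ETNPPL was under 100 on all GD15 and GD26 arrays, so these calls, and 1 after loess in Yorkshire, compare no measured signal. The same holds on GD26 between the breeds for the AOAH call after quantile normalization and the AOAH and ETNPPL calls after loess, where CHI3L1 was not called. With the replicate number as a block, 2 were called in Meishan, since TMEM86A passed (limma adjusted p = 0.0362). The block also ended the GD15 breed call of TMEM86A (limma adjusted p = 0.0526). The labels do not say whether equal numbers pair the samples, and they were not treated as pairs. The deviations of 45 pairs of equal number correlated at -0.56 to 0.33, with 12 over 0.1. Those of 90 pairs of different number correlated at -0.36 to 0.55, with 19 over 0.1. The deviations are taken from means of 3 arrays, so this check does not settle whether the samples pair. Between the breeds on GD15, 3 were called, 1 with only the 2 groups in the fit, and 2 to 3 with each array left out. On GD26, 1 was called, 0 with only the 2 groups, 0 after median centring and 2 after loess, and 0 to 2 with each array left out. On GD50, 1 was called, 2 after loess, and 0 to 2 with each array left out. The call added after loess was of ETNPPL, which passed the filter through its GD50 arrays alone. Directions that turned were those of TMEM86A on GD26 after loess (0.023), of ETNPPL on GD50 after median centring (0.15) and loess (0.54, limma adjusted p = 0.0118), of TMEM86A on GD50 after median centring (0.15) and loess (0.15), and of the breed difference of the first CHI3L1 step with the floor (-0.0798). The cause was not tested. With the floor, AOAH is at 100 on most early arrays, so its first step cannot be measured there. Of the 5 genes most like each gene, 3 of ETNPPL and TMEM86A and 2 of AOAH and CHI3L1 were chosen on Yorkshire arrays alone, and 2 of ETNPPL and 1 of each other gene on Meishan arrays alone. Signals under 100 limit the values of ETNPPL, AOAH and, in Yorkshire, CHI3L1 before GD50.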
